A study of Arabidopsis thaliana with 9 samples.

Results

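The CBF cold factors and genes that act with or below them were followed as 10 loci chosen by name: CBF1 (AT4G25490), CBF2 (AT4G25470), CBF3 (AT4G25480, also DREB1A), ZAT10 (AT1G27730, also STZ), ZAT12 (AT5G59820), COR15A (AT2G42540), COR47 (AT1G20440), KIN1 (AT5G15960), COR78 (AT5G52310, also RD29A) and GOLS3 (AT1G09350). They are 10 of the 32678 genes counted, named for their place in the pathway by a rule with no threshold on a value, although earlier results of these data were known when they were chosen. Nascent RNA from nuclear run-on (NRO), which tags transcripts being made in isolated nuclei so that the biotinylated RNA can be captured, and steady-state nuclear RNA (RNA) were counted per gene in Arabidopsis thaliana leaves. The plants were the line labelled nrpd1-3, a mutant of the largest subunit of Pol IV, the line labelled nrpe1-11, a mutant of the largest subunit of Pol V, and Col-0, the wild type. All were 3 weeks old, kept at 22 °C under a day of 16 h and a night of 8 h, and no cold treatment is named in the labels. Each assay and genotype had 1 library, 6 in all, and the number of plants behind a library is not given in the sources used here.

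The CBF genes encode AP2/ERF transcription factors that are induced within minutes to hours of chilling and bind the C-repeat element, also called DRE, in the promoters of cold-regulated (COR) genes. ZAT10 and ZAT12 are zinc finger repressors induced by many stresses, cold among them, in parallel with the CBF genes. COR15A, COR47, KIN1 and COR78 encode hydrophilic proteins that protect membranes and other proteins during freezing, and GOLS3 encodes a galactinol synthase of the raffinose pathway.

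NRO libraries held 2687149 to 8185846 gene counts and RNA libraries 386011 to 709905. The NRO library of Col-0 stood apart: alignments that were not unique made up 48.4% in NRO of nrpd1-3 and 47.8% in NRO of nrpe1-11, against 79.8% in NRO of Col-0, and the top 10 genes took 19.7% and 17.2% of gene counts, against 45.2% in Col-0, which also had the fewest NRO counts. Every comparison of a mutant's NRO with Col-0 rests on that library, so results without it are given beside them. NRPD1 had 10.7 CPM in the NRO library labelled nrpd1-3, 2.04 CPM in that labelled nrpe1-11 and 4.48 CPM in that of Col-0, and 8, 3 and 0 counts in RNA, so it stood higher in the line labelled as its mutant. NRPE1 had 9.19, 8.80 and 11.9 CPM in NRO and 6, 8 and 6 counts in RNA, with overlapping counting intervals. A mutated gene can still be transcribed, so these counts do not check the labels, and every direction is that of the libraries labelled nrpd1-3, nrpe1-11 and Col-0. Leaf markers were present throughout: 5 mesophyll genes summed to 3532, 4597 and 5328 CPM (counts scaled to library size) in NRO of nrpd1-3, nrpe1-11 and Col-0. In RNA of the same genotypes they summed to 4123, 6798 and 5897 CPM. In bulk leaves, fewer cells of a type and less RNA per cell cannot be told apart.

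The CBF genes stood higher in nascent RNA of both mutants, while COR78, one of their best-known targets, stood lower. CBF1 had 514 CPM in NRO of nrpd1-3 and 367 CPM in NRO of nrpe1-11, against 94.0 CPM in NRO of Col-0, from 4525, 3423 and 189 counts. CBF2 had 930 CPM in nrpd1-3 and 690 CPM in nrpe1-11, against 269 CPM in Col-0, from 8193, 6428 and 541 counts. CBF3 was the least abundant of the family, with 18.2 CPM in nrpd1-3 and 16.1 CPM in nrpe1-11, against 3.48 CPM in Col-0, where it rested on 7 counts. For all 3 genes the order was nrpd1-3, then nrpe1-11, then Col-0, and the 95% Poisson counting intervals of each mutant did not overlap that of Col-0.

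In steady-state RNA the same genes gave few counts. CBF1 had 26 counts in nrpd1-3 and 10 in nrpe1-11, against 9 in Col-0, which are 54.5, 19.1 and 16.6 CPM. CBF2 had 27 counts in nrpd1-3 and 25 in nrpe1-11, against 18 in Col-0, which are 56.6, 47.7 and 33.3 CPM. CBF3 had 2 counts in each mutant and 0 in Col-0, where a count of 0 allows up to 5.55 CPM at the floor of 3 counts. Only CBF1 in nrpd1-3 was clear of its Col-0 interval here.

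COR78, the desiccation- and cold-responsive gene whose promoter is widely used as a reporter of this pathway, had 87.9 CPM in NRO of nrpd1-3 and 87.3 CPM in NRO of nrpe1-11, against 400 CPM in Col-0. The raw counts were 774, 814 and 805, so the Col-0 library, with the smallest total, held about as many COR78 counts as each mutant library. In RNA it had 12.6 CPM in nrpd1-3 and 15.3 CPM in nrpe1-11, against 79.5 CPM in Col-0, from 6, 8 and 43 counts. Both mutants were below Col-0 in both assays with no overlap of counting intervals, and they lay close to each other.

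The remaining targets did not share one pattern. COR47, a dehydrin, had 1606 CPM in NRO of nrpd1-3 and 1815 CPM in NRO of nrpe1-11, against 1232 CPM in Col-0, and 312, 446 and 326 CPM in RNA of the same genotypes. COR15A, a chloroplast stroma protein that stabilises membranes, had 119, 186 and 30 counts in NRO and 2, 4 and 2 counts in RNA of nrpd1-3, nrpe1-11 and Col-0, and once scaled the NRO interval of each mutant overlapped that of Col-0. KIN1, a small hydrophilic protein, had 3.75 CPM in NRO of nrpd1-3 and 9.98 CPM in nrpe1-11, against 10.9 CPM in Col-0, so the nrpd1-3 library alone was low. GOLS3 had 5 NRO counts in nrpd1-3, 14 in nrpe1-11 and 0 in Col-0, and 0, 1 and 0 RNA counts. In the Col-0 NRO library 3 counts are worth 1.49 CPM, about the GOLS3 level of nrpe1-11, so no difference was detectable at this depth and no fold is given.

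Both zinc finger genes differed from Col-0 by less than 2-fold in each mutant and assay, and ZAT10 had more counts per length than any other member in all 3 NRO libraries. ZAT10 had 2368 CPM in NRO of nrpd1-3 and 2015 CPM in nrpe1-11, against 1740 CPM in Col-0, and in RNA 199 and 166 CPM, against 259 CPM in Col-0. ZAT12 had 541 CPM in NRO of nrpd1-3 and 521 CPM in nrpe1-11, against 355 CPM in Col-0, and in RNA 54.5 and 68.7 CPM, against 53.6 CPM in Col-0. The ratio of ZAT10 to Col-0 was above 1 in nascent RNA of both mutants, at 1.36 (95% counting interval 1.31 to 1.41) in nrpd1-3 and 1.16 (lower limit 1.12) in nrpe1-11, and below it in RNA, at 0.769 (0.587 to 1.01) and 0.641 (0.485 to 0.844).

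**Figure D1:**
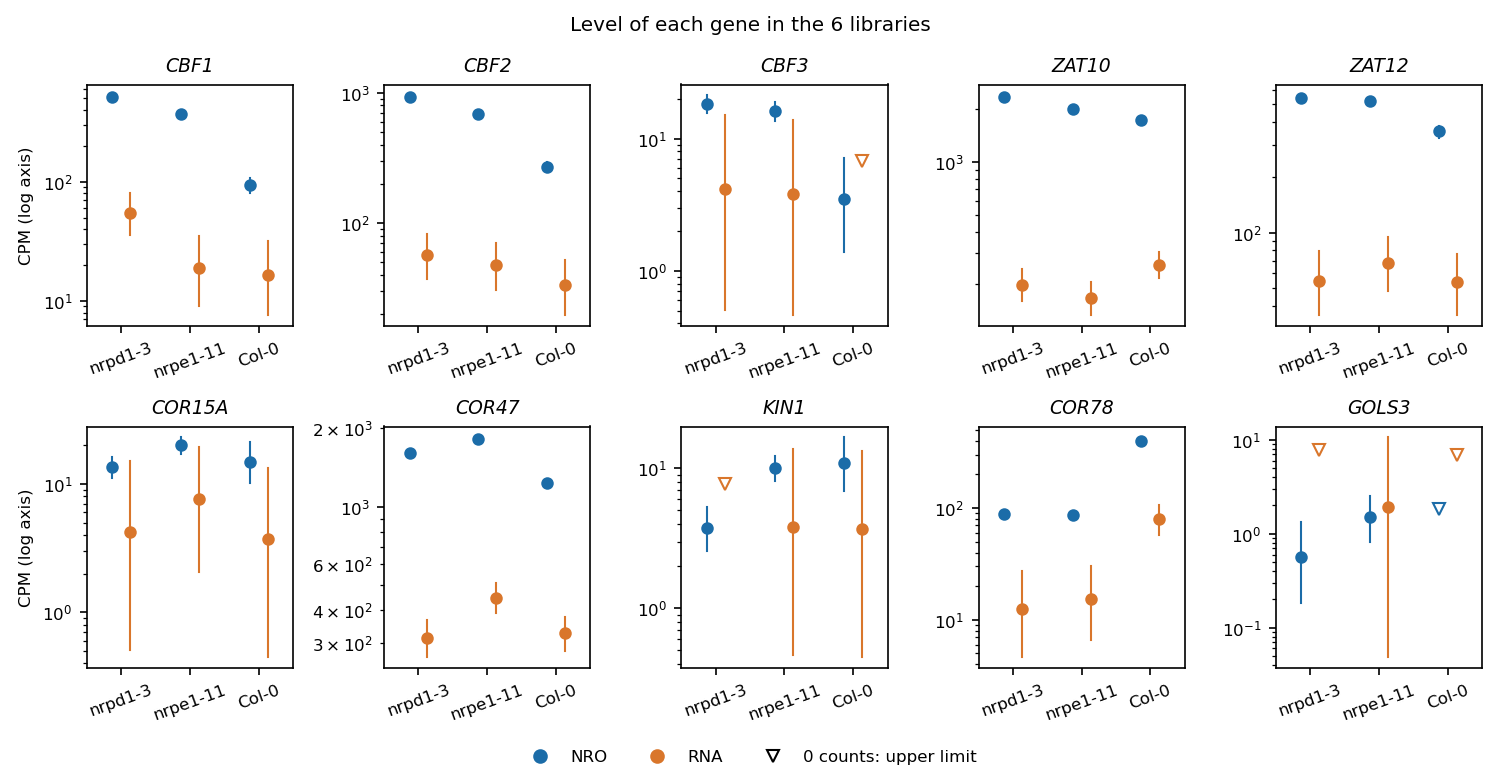
CPM (log axis) of each of the 10 genes in nrpd1-3, nrpe1-11 and Col-0, with NRO in blue and RNA in orange; points are single libraries, bars are 95% Poisson intervals of the count, and open triangles mark the upper limit where the count was 0. CBF1, CBF2 and CBF3 are lowest in Col-0 in NRO, and COR78 is highest in Col-0 in both assays.

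Levels between genes were compared per kilobase of gene span. In NRO of nrpd1-3 the order was ZAT10 (1818 CPM per kb), CBF2 (943), COR47 (651), ZAT12 (552), CBF1 (422), COR78 (30.0), CBF3 (13.1), COR15A (7.15), KIN1 (3.37) and GOLS3 (0.314). In NRO of nrpe1-11 COR47 (736 CPM per kb) came before CBF2 (699), and the counting intervals of CBF3 (11.6) and COR15A (10.6) overlapped, as did those of COR15A and KIN1 (8.99). In NRO of Col-0 CBF2 (273 CPM per kb) came after ZAT10 (1335), COR47 (500) and ZAT12 (362), and COR78 (137) stood above CBF1 (77.3). KIN1 (9.86 CPM per kb) and COR15A (7.90) had overlapping intervals there. COR78 was thus below CBF1 in both mutants and above it in Col-0. Gene span includes introns, and spans come from a newer release of the annotation than the one the counts may have used.

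The size of each difference was judged by a rule, since 1 library per group has no replicate error: a ratio of at least 2-fold, with an exact 95% conditional binomial interval, which covers counting error only, excluding 1. Of the 10 genes, 9 had the minimum of 20 counts in at least 1 NRO library and 6 in at least 1 RNA library. The filter can pass a gene through the group where it is high, as it did CBF3, with 160, 150 and 7 NRO counts in nrpd1-3, nrpe1-11 and Col-0.

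In NRO of nrpd1-3 against Col-0, 3 genes stood higher and 2 lower, against 9.31% of 16083 genes higher and 6.99% lower. The 3 higher were CBF1, 5.46-fold (interval 4.72 to 6.35), CBF3, 5.22-fold (2.47 to 13.2), and CBF2, 3.46-fold (3.17 to 3.78). COR78 was at 0.219 of Col-0 (0.199 to 0.242) and KIN1 at 0.342 (0.194 to 0.616). COR78 had rank 108 from the lowest log2 ratio among the 16083 genes, and CBF1 rank 319 from the highest.

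In NRO of nrpe1-11 against Col-0, the same 3 CBF genes stood higher and COR78 lower, against 12.1% and 11.1% of all genes. CBF3 was 4.62-fold (2.19 to 11.7), CBF1 3.91-fold (3.37 to 4.55) and CBF2 2.56-fold (2.35 to 2.80) the Col-0 level. COR78 was at 0.218 of Col-0 (0.198 to 0.241). KIN1, at 0.912 (0.568 to 1.52), was not past the rule. The comparisons of both mutants share the Col-0 library, so their likeness is no separate evidence.

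In RNA of nrpd1-3 against Col-0, CBF1 was higher, 3.28-fold (1.49 to 7.94), and COR78 lower, at 0.158 (0.0550 to 0.373), against 7.25% of 3297 genes higher and 11.9% lower. CBF2 had a ratio of 1.70 (0.903 to 3.28), which includes 1. In RNA, CBF1 reached the minimum count only in nrpd1-3 and COR78 only in Col-0, in each case where it is high. Their RNA calls against Col-0 therefore give no support beyond their counts. In RNA of nrpe1-11 against Col-0, COR78 alone passed, at 0.192 (0.0779 to 0.413), against 19.0% of genes lower and 14.0% higher, and CBF1 had a ratio of 1.15 (0.419 to 3.19).

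The mutants differed from each other at 2 members. KIN1 was 2.66-fold (1.77 to 4.09) higher in NRO of nrpe1-11 than of nrpd1-3, a direction met by 3.35% of 16083 genes, with 4.66% lower. CBF1 was lower in RNA of nrpe1-11, at 0.350 of nrpd1-3 (0.151 to 0.750), where 5.31% of 3297 genes were lower and 4.82% higher. It passed the filter in RNA only through nrpd1-3, where it is high, so that call gives no support beyond its counts. In NRO, CBF1 and CBF2 were at 0.715 (0.684 to 0.748) and 0.741 (0.718 to 0.766) of nrpd1-3, clear of 1 by counting error and under 2-fold.

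**Figure D2:**
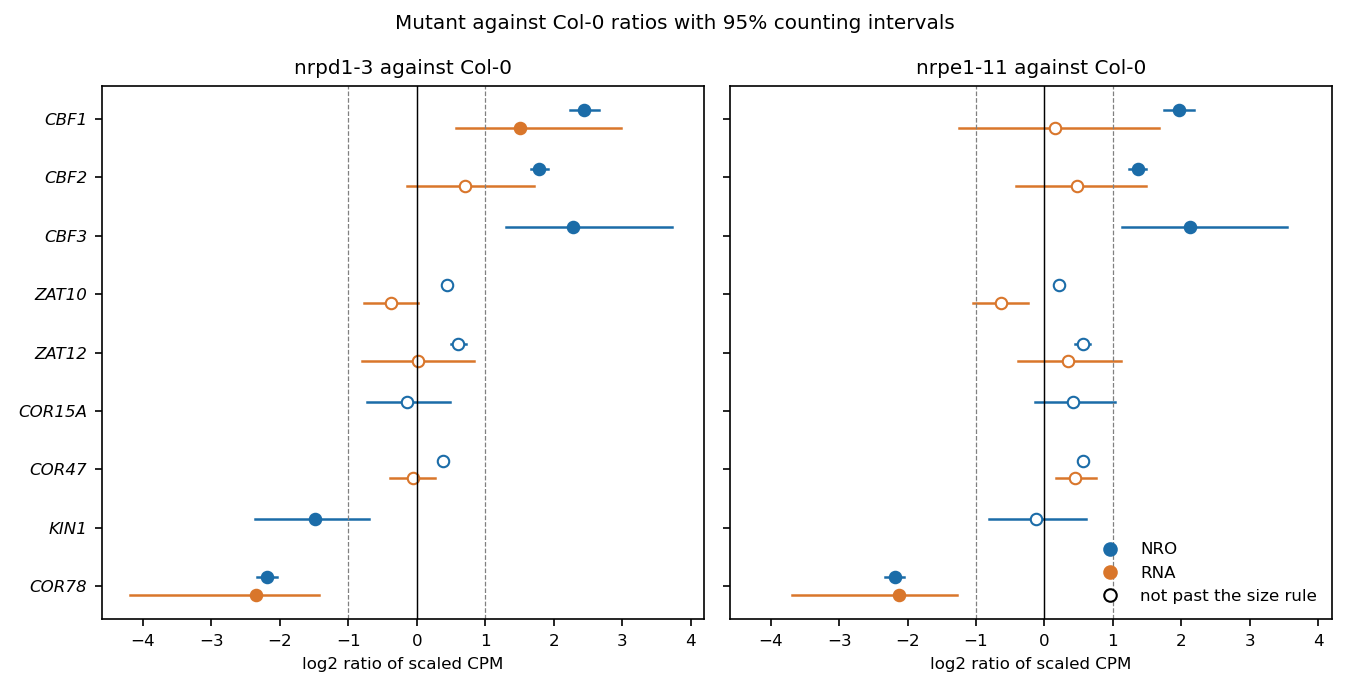
Log2 ratio of scaled CPM of nrpd1-3 (left) and nrpe1-11 (right) against Col-0 for each gene with at least 20 counts in 1 library of the assay, NRO in blue and RNA in orange; bars are exact 95% counting intervals and dashed lines mark 2-fold. Filled points pass the size rule: the 3 CBF genes lie above and COR78 below in NRO of both mutants.

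How libraries are scaled set the size of these ratios. Scaling by library totals in place of trimmed means moved the median log2 ratio of all genes by 0.50 in NRO of nrpd1-3 and by 0.70 in NRO of nrpe1-11 against Col-0, and by 0.65 and 0.45 in RNA. The counts of genes higher and lower became 3854 and 366 in place of 1498 and 1124 in NRO of nrpd1-3, 5673 and 516 in place of 1948 and 1778 in NRO of nrpe1-11, 927 and 109 in place of 239 and 392 in RNA of nrpd1-3, and 886 and 365 in place of 463 and 628 in RNA of nrpe1-11. Between the mutants they became 965 and 471 in place of 538 and 749 in NRO, and 95 and 302 in place of 159 and 175 in RNA. Members higher became 4 in place of 3 in NRO of nrpd1-3 and 6 in place of 3 in NRO of nrpe1-11. Under that scaling the CBF log2 ratios in NRO remained positive, at 2.97, 2.31 and 2.76 for CBF1, CBF2 and CBF3 in nrpd1-3 and 2.69, 2.09 and 2.79 in nrpe1-11, and COR78 remained negative, at -1.66 and -1.46. KIN1 in nrpd1-3 was at -0.97, just short of the rule. The RNA level of ZAT10 was then above Col-0 in nrpd1-3 and still below it in nrpe1-11. Its opposite directions in NRO and RNA of nrpd1-3 thus depended on the scaling.

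An additive model with terms for assay and genotype, tested with edgeR's quasi-likelihood test and Benjamini-Hochberg adjustment over 14530 genes, estimated 1 genotype difference from both assays together. It has 2 residual degrees of freedom, and the only spread it can see is that of the genotype response between NRO and RNA, not between plants. Its prior degrees of freedom were infinite, so the spread used for each gene came wholly from all genes pooled. The p-values thus do not measure a gene's own disagreement between the assays. With each gene's own spread, limma called 0 members in nrpd1-3, 0 in nrpe1-11 and 0 in NRO against RNA. A call does not show that a difference was present in each assay, and NRO supplied most of the counts. In nrpd1-3 against Col-0, CBF1 rose with a log2 fold change of 2.28 ± 0.388 (SE; adjusted p = 6.19e-07), CBF3 with 2.44 ± 0.587 (adjusted p = 0.00107) and CBF2 with 1.41 ± 0.389 (adjusted p = 0.00606). COR78 fell, at -2.34 ± 0.338 (adjusted p = 1.46e-09). These are 3 higher and 1 lower of 9 members tested, against 3.89% and 5.34% of all genes. KIN1, at -1.63 ± 0.593, was not called (edgeR adjusted p = 0.0591).

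CBF3 reached the minimum of 20 counts only in the NRO libraries of both mutants, where it is high, and had 2, 2 and 0 RNA counts, so its calls give no support beyond its counts.

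In nrpe1-11 against Col-0, CBF1 rose with a log2 fold change of 1.49 ± 0.384 (edgeR adjusted p = 0.00135) and CBF3 with 2.21 ± 0.594 (adjusted p = 0.00218), and COR78 fell, at -2.37 ± 0.337 (adjusted p = 2.02e-10). These are 2 higher and 1 lower of 9, against 6.94% and 11.5% of all genes. CBF2, at 0.98 ± 0.388, was not called (adjusted p = 0.0604). ZAT10, ZAT12, COR15A and COR47 had fitted log2 fold changes between -0.33 and 0.40 in both mutants, and none was called. In nrpe1-11 against nrpd1-3 edgeR called 0 members, against 0.461% of all genes higher and 1.67% lower; CBF1 and KIN1 had an unadjusted p under 0.05, and DESeq2 called 0.

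The CBF calls rested on the NRO library of Col-0 and the COR78 calls did not. Without that library CBF1 was at 1.28 (edgeR adjusted p = 0.208) and CBF2 at 0.72 (adjusted p = 0.546) in nrpd1-3, and CBF1 at 0.58 (adjusted p = 0.674) in nrpe1-11, while CBF3, then compared with a Col-0 count of 0, lost its calls too (adjusted p = 0.493 in nrpd1-3 and 0.401 in nrpe1-11). COR78 stayed at -2.63 (adjusted p = 4.29e-07) in nrpd1-3 and -2.68 (adjusted p = 4.79e-08) in nrpe1-11. The COR78 call in nrpd1-3 was lost without the NRO library of nrpd1-3 (log2 fold change -2.59, adjusted p = 0.0657), the CBF1 call in nrpe1-11 without the NRO library of nrpe1-11 (0.54, adjusted p = 0.819), and the CBF2 call also without the NRO or the RNA library of nrpd1-3 (1.10 and 1.59, adjusted p = 0.625 and 0.148). Some members gained calls: ZAT10 in nrpe1-11 without the NRO library of Col-0 (-0.82, adjusted p = 0.0476), and, without the RNA library of Col-0, CBF2 in nrpe1-11 (1.32, adjusted p = 1.65e-06) and KIN1 in nrpd1-3 (-1.61, adjusted p = 0.0334). Between the mutants CBF1 (-0.70, adjusted p = 0.0124) and KIN1 (1.41, adjusted p = 0.0344) were called without the NRO library of Col-0, and both also without its RNA library. With library totals edgeR called 2348 genes higher and 198 lower in place of 565 and 776 in nrpd1-3, 4356 and 492 in place of 1009 and 1672 in nrpe1-11, and 47 and 41 in place of 67 and 243 between the mutants.

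Ratios of counts within a library do not depend on scaling. COR78 had 0.0601 counts per summed CBF1, CBF2 and CBF3 count in NRO of nrpd1-3 (95% interval 0.0558 to 0.0646) and 0.0814 in NRO of nrpe1-11 (0.0757 to 0.0874), against 1.09 in NRO of Col-0 (0.987 to 1.21). In RNA the ratio was 0.109 in nrpd1-3 (0.0384 to 0.253) and 0.216 in nrpe1-11 (0.0870 to 0.472), against 1.59 in Col-0 (0.962 to 2.68). In each assay both mutants lay below Col-0 with no overlap of intervals. COR47 had 1.10 counts per CBF count in NRO of nrpd1-3 (1.07 to 1.12) and 1.69 in nrpe1-11 (1.65 to 1.73), against 3.36 in Col-0 (3.09 to 3.65). Both mutants were thus below Col-0 in NRO for COR47 too, with no overlap. In RNA it had 2.71 in nrpd1-3 (1.98 to 3.76) and 6.32 in nrpe1-11 (4.46 to 9.21), against 6.52 in Col-0 (4.33 to 10.2), so nrpe1-11 and Col-0 overlapped. These ratios were chosen after the values were seen, and a ratio shows unequal change, not which gene changed.

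Within the CBF family, CBF2 gave the most counts in all 6 libraries. Its share of the family's NRO counts was 63.6% in nrpd1-3 (95% Clopper-Pearson interval 62.8 to 64.5) and 64.3% in nrpe1-11 (63.3 to 65.2), against 73.4% in Col-0 (70.1 to 76.6). CBF1 made up 35.1% in nrpd1-3 and 34.2% in nrpe1-11, against 25.6% in Col-0 (22.5 to 29.0), so the balance of CBF1 to CBF2 differed from Col-0 beyond counting error in both mutants. CBF3 gave 1.06 to 1.45% in nrpd1-3, 1.27 to 1.76% in nrpe1-11 and 0.383 to 1.95% in Col-0 by its intervals, which overlapped. In RNA the family summed to 55, 37 and 27 counts in nrpd1-3, nrpe1-11 and Col-0, and the intervals of every share overlapped between genotypes. Reads that aligned more than once were given to no gene, so near-identical stretches of these paralogues can be under-counted, and the shares are uncertain to that extent, as are the levels of the near copies COR15A and COR15B and KIN1 and KIN2.

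**Figure D3:**
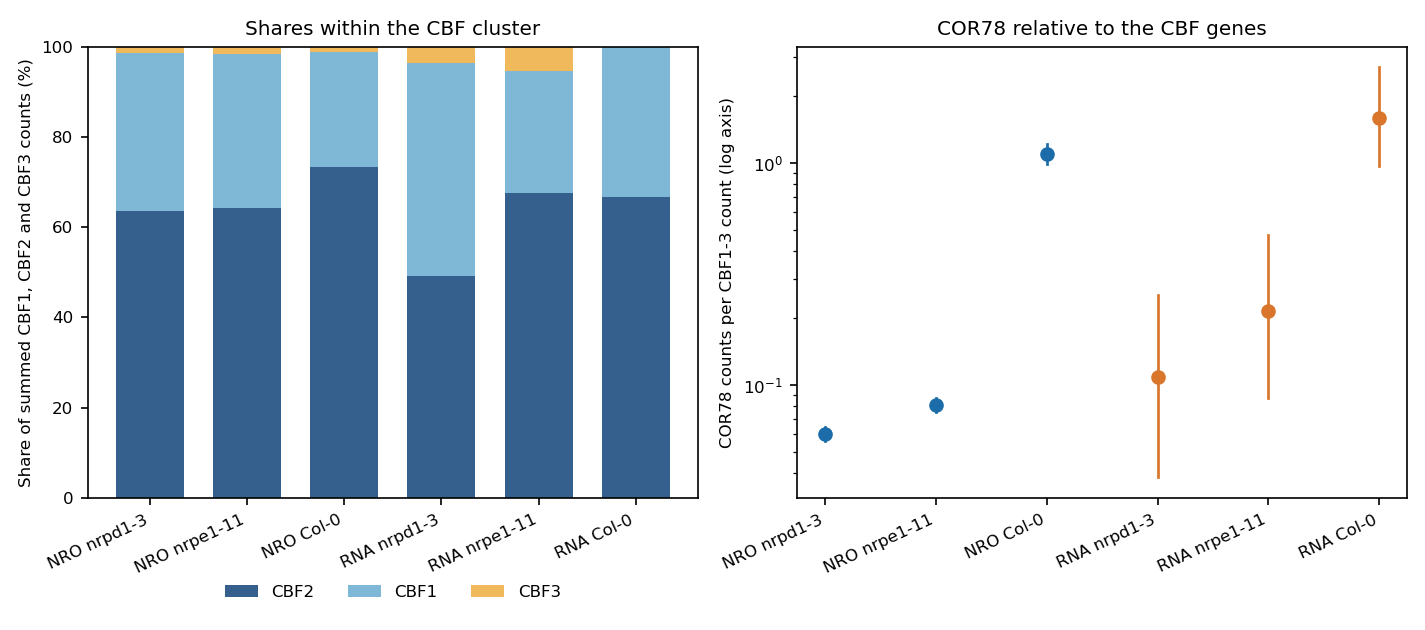
Left, share (%) of CBF2, CBF1 and CBF3 in their summed counts in each library; right, COR78 counts per summed CBF count (log axis) with 95% intervals, NRO in blue and RNA in orange. CBF1 takes a larger share in NRO of both mutants than of Col-0, and the COR78 ratio is at most 0.216 in each mutant library and at least 1.09 in those of Col-0.

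The CBF genes lie side by side, in the gene order CBF2, CBF3, CBF1, and the genes next to the cluster differed from Col-0 by less than 2-fold. ABCB28, the neighbour of CBF2, had NRO log2 ratios to Col-0 of 0.29 in nrpd1-3 and -0.12 in nrpe1-11. RS40, a splicing factor gene next to CBF1, had 0.52 and 0.40, in the same direction as the CBF genes. Neither passed the size rule, against log2 ratios from 1.36 to 2.45 inside the cluster.

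Several targets sit beside a relative. KIN2, the partner of KIN1, had 37.8 CPM in NRO of nrpd1-3 and 53.1 CPM in nrpe1-11, against 90.0 CPM in Col-0, and stood lower with KIN1 in nrpd1-3 (NRO log2 ratios of -1.25 for KIN2 and -1.48 for KIN1). ERD10, the dehydrin next to COR47, had NRO log2 ratios of 0.37 and 0.23, close to the 0.38 and 0.56 of COR47. RD29B, a gene driven mainly by abscisic acid next to COR78, had 9 NRO counts in nrpd1-3 and 35 in nrpe1-11, against 1 in Col-0. It reached the minimum count only in nrpe1-11, where it is high, so its log2 ratio of 2.35 there is a description of few counts. COR15B had -0.76 in nrpd1-3 and -0.59 in nrpe1-11, beside -0.14 and 0.41 for COR15A, and none of the 4 passed. Of 16 immediate neighbours that are not among the 10 genes, 11 had enough NRO counts, and the rule was met by 1 gene, lower, in nrpd1-3 and by 3 genes in nrpe1-11, 1 of them higher. Over all genes 6.99% were lower in NRO of nrpd1-3, and in NRO of nrpe1-11 12.1% were higher and 11.1% lower, so these few calls say nothing particular about neighbours.

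**Figure D4:**
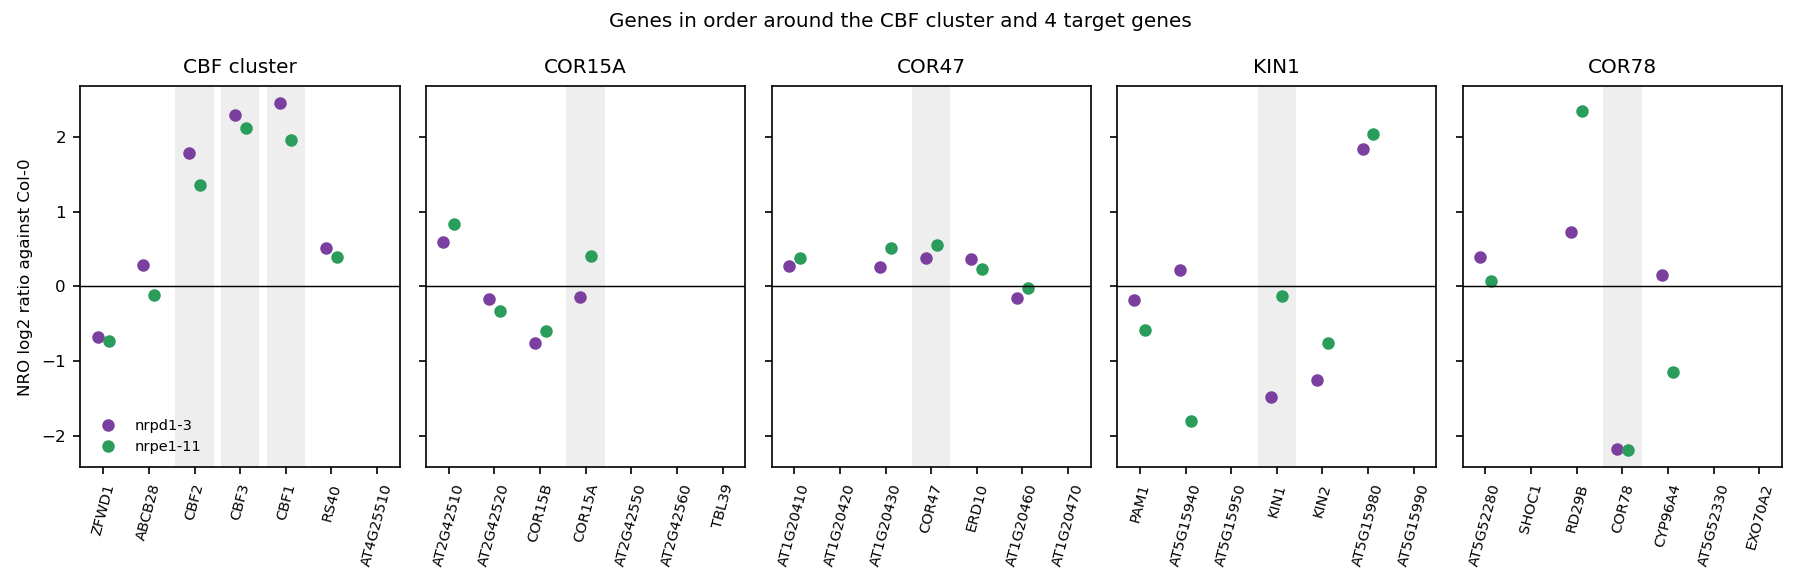
NRO log2 ratio to Col-0 of genes in order around the CBF cluster, COR15A, COR47, KIN1 and COR78, with nrpd1-3 in purple and nrpe1-11 in green. Grey bands mark those of the 10 loci that are shown, without ZAT10, ZAT12 and GOLS3, and genes under 20 counts have no point. The CBF genes lie above 1 in both mutants between flanking genes at -0.73 to 0.52, and COR78 lies below -2 beside RD29B.

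The members stood higher in nascent than in steady-state RNA wherever they passed the size rule. In nrpd1-3, 7 of 9 members tested were higher in NRO, against 13.8% of 15218 genes, and in nrpe1-11 7 of 9, against 12.2% of 15350. In Col-0 6 of 8 were higher, against 15.7% of 8502. No member was lower, against 7.52%, 8.27% and 3.88% of genes. A gene was tested if either library of the genotype held 20 counts, and NRO libraries were the deeper. CBF3, COR15A and KIN1 reached 20 counts only in NRO. So did COR78 in both mutants, CBF1 in nrpe1-11 and Col-0, and CBF2 in Col-0. These passed the filter only through the assay where they are high, so their calls give no support beyond their counts. ZAT10, ZAT12 and COR47 reached it in both assays of every genotype. CBF2 was 14.6-fold higher in NRO in nrpd1-3 (10.0 to 22.1) and 13.0-fold in nrpe1-11 (8.82 to 20.2), and 6.68-fold in Col-0 (4.19 to 11.4). ZAT10 was 10.6-fold, 10.9-fold and 5.55-fold higher in the same order, and COR47 was 4.56-fold, 3.67-fold and 3.13-fold higher, the lowest of the 6 members past the rule in all 3 genotypes. With library totals the counts over all genes were 2928 higher and 620 lower in place of 1871 and 1269 in nrpe1-11, and 1967 and 144 in place of 1331 and 330 in Col-0.

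In the additive model 8 of 9 members were higher in NRO, against 16.7% of all genes higher and 9.88% lower. CBF3 and COR15A among them reached 20 counts only in NRO libraries, so their calls give no support beyond their counts. The log2 fold change was 3.45 ± 0.328 for CBF2 (edgeR adjusted p = 9.57e-23), 3.16 ± 0.324 for CBF1 (adjusted p = 7.24e-20), 3.07 ± 0.362 for ZAT10 (adjusted p = 3.77e-15) and 2.75 ± 0.301 for ZAT12 (adjusted p = 1.93e-17). COR78 had 2.23 ± 0.302 (adjusted p = 1.08e-11) and COR47 1.87 ± 0.332 (adjusted p = 4.64e-07). KIN1, at 1.46 ± 0.747, was not called (adjusted p = 0.138). COR15A, at 1.41 ± 0.508 (adjusted p = 0.0250), lost its call whichever library was left out, and without the NRO library of nrpd1-3 edgeR called 5 members. CBF1, CBF2, ZAT10 and ZAT12 had larger fold changes than any COR gene, and CBF3 had 2.03 ± 0.647 (adjusted p = 0.00947); differences between genes were not tested. Library totals gave 3117 genes higher and 776 lower in place of 2430 and 1436.

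Other genes of the cold pathway were taken from lists, each with its median beside that of all genes, 0.00 in nrpd1-3 and -0.02 in nrpe1-11. The shares of all genes called, against which each count is to be read, are, for nrpd1-3, 3.89% called higher with 5.34% called lower, and, for nrpe1-11, 6.94% called higher with 11.5% called lower, and with so few genes in a list no count is called particular to it. Of 17 other CBF regulon genes 12 were tested, and 0 rose and 3 fell in each mutant, with median log2 fold changes of -0.73 in nrpd1-3 and -0.52 in nrpe1-11. GOLS1, a galactinol synthase, fell in both, at -2.47 ± 0.522 in nrpd1-3 (edgeR adjusted p = 0.000127) and -1.69 ± 0.492 in nrpe1-11 (adjusted p = 0.00549). KIN2 (-1.24 ± 0.307, adjusted p = 0.00162) and COR413IM1, a chloroplast inner membrane protein (-0.94 ± 0.308, adjusted p = 0.0310), fell in nrpd1-3. LEA14 (-1.35 ± 0.348, adjusted p = 0.00134) and the dehydrin XERO2 (-1.70 ± 0.479, adjusted p = 0.00395) fell in nrpe1-11. With library totals 1 rose and 1 fell in nrpd1-3 and 2 rose and 0 fell in nrpe1-11; the list's medians of -0.15 and 0.29 then stood below all-gene medians of 0.60 and 0.75, so relative to all genes the list lay lower under both scalings. The GOLS1 calls were lost without the NRO library of nrpd1-3 or nrpe1-11, each for its own comparison, or of Col-0, with GOLS1 at -8.15 to -2.28 in nrpd1-3 and -2.31 to -1.36 in nrpe1-11 when 1 library was left out. XERO2 was at -7.33 to -1.48 and lost its call without the NRO library of nrpe1-11 or of Col-0. GOLS1 had 0 RNA counts in nrpd1-3 and XERO2 0 in nrpe1-11, so the extreme fits are no bounds. The KIN2 and COR413IM1 calls were lost with DESeq2 and without the NRO library of Col-0 or of nrpd1-3, where COR413IM1 turned to 0.16, and its call also without either nrpe1-11 library. The LEA14 call was lost without the NRO or RNA library of nrpe1-11 (-2.18 and -0.88). The abundant dehydrins ERD10 and ERD14 were not called, at -0.13 and -0.03 in nrpd1-3.

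None of the other DREB factors was called higher. Of 6 tested, 1 fell in nrpd1-3 and 4 fell in nrpe1-11, with medians of -0.29 and -1.72. DEAR1, a DREB-type repressor, fell in both, at -1.66 ± 0.33 in nrpd1-3 (edgeR adjusted p = 3.31e-05) and -2.29 ± 0.335 in nrpe1-11 (adjusted p = 7.05e-10). DDF1 (-1.91 ± 0.369, adjusted p = 6.07e-06), DDF2 (-2.60 ± 0.453, adjusted p = 3.9e-07) and CBF4 (-1.53 ± 0.342, adjusted p = 0.000133) fell in nrpe1-11. Without the NRO library of nrpe1-11 DDF2 turned to 0.73 and CBF4 was at -6.12, neither called, and both calls were also lost with DESeq2 and without the NRO library of Col-0. CBF4, a relative linked to drought, had 69.0 CPM in NRO of nrpd1-3 and 24.2 CPM in NRO of nrpe1-11, against 64.2 CPM in Col-0, and was lower in nrpe1-11 than in nrpd1-3 (log2 fold change -1.58 ± 0.323, adjusted p = 0.000478). With library totals 1 of the 6 rose and 1 fell in nrpd1-3, and 1 rose and 3 fell in nrpe1-11.

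Of 24 tested regulators of the CBF genes, 0 rose and 3 fell in nrpd1-3 and 1 rose and 3 fell in nrpe1-11, with medians of 0.02 and -0.04. MYB15, a repressor of CBF transcription, had 237 CPM in NRO of nrpd1-3 and 105 CPM in NRO of nrpe1-11, against 537 CPM in Col-0, and 23 and 11 counts in RNA, against 99 in Col-0. It fell in both mutants, at -1.54 ± 0.33 in nrpd1-3 (edgeR adjusted p = 0.000162) and -2.75 ± 0.350 in nrpe1-11 (adjusted p = 6.92e-13). ICE1, an activator of the CBF genes, rose in nrpe1-11 at 1.09 ± 0.378 (adjusted p = 0.0250) and had 0.82 ± 0.386 in nrpd1-3 (adjusted p = 0.189). ICE1 reached the minimum count only in the NRO libraries of both mutants, where it is higher. Its call therefore gives no support beyond its counts. The kinases CRPK1 and OST1 fell in nrpd1-3, at -0.90 and -1.69 (adjusted p = 0.0310 and 0.0396), and CRPK1 and the calmodulin-binding activator CAMTA3 fell in nrpe1-11, at -1.54 and -1.37 (adjusted p = 7.94e-06 and 0.000456). The CRPK1 and OST1 calls in nrpd1-3 were lost with library totals and without a filter on low counts. DESeq2 lost the calls of CRPK1 in nrpd1-3 and of ICE1. With 1 library left out, ICE1 was at 0.55 to 1.39 in nrpe1-11 over the 4 fits that could test it. CRPK1 was at -1.63 to -0.69 in nrpd1-3. With library totals 8 regulators rose and 0 fell in nrpd1-3, and 9 rose and 1 fell in nrpe1-11.

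Among 15 other early cold and stress factors, 3 rose and 1 fell in nrpd1-3 and 3 rose and 3 fell in nrpe1-11. The ethylene response factor ERF5 rose at 2.04 ± 0.366 in nrpd1-3 (edgeR adjusted p = 2.56e-06) and 1.73 ± 0.364 in nrpe1-11 (adjusted p = 4.13e-05), and ERF6 and RAV1 rose in both, with list medians of 0.63 and 0.31. RAV1 in nrpd1-3 was near the threshold, at 1.07 ± 0.362 (edgeR adjusted p = 0.0389). That call was lost with DESeq2 and without a filter on low counts, and RAV1 was at 0.55 to 1.38 with 1 library left out. ZAT11, a zinc finger relative of ZAT10 and ZAT12, fell at -2.33 ± 0.528 in nrpd1-3 (adjusted p = 0.000424) and -2.83 ± 0.543 in nrpe1-11 (adjusted p = 5.14e-06). It had 0 RNA counts in both mutants, and both calls were lost without the NRO library of the mutant or of Col-0, with ZAT11 at -7.54 to -2.12 in nrpd1-3 and -8.05 to -2.58 in nrpe1-11. Of 12 abscisic acid response genes 2 rose and 1 fell in nrpd1-3, and 4 rose and 1 fell in nrpe1-11, with medians of 0.66 and 0.64. ABI1, a phosphatase that holds the abscisic acid pathway off, rose at 1.81 ± 0.332 in nrpd1-3 (adjusted p = 4.67e-06) and 2.14 ± 0.327 in nrpe1-11 (adjusted p = 3.96e-09), and the factor RD26 alone fell, at -1.21 and -1.30 (adjusted p = 0.00505 and 0.00084). HAI2 also rose in both, at 3.02 ± 0.933 and 2.65 ± 0.963 (edgeR adjusted p = 0.0191 and 0.0354). RAB18 (3.35 ± 1.22, adjusted p = 0.0365) and ABF4 (1.15 ± 0.313, adjusted p = 0.00253) rose in nrpe1-11. HAI2 and RAB18 reached the minimum count only in the NRO libraries of both mutants, where they are high. Their calls, which the list's counts of risen genes include, therefore give no support beyond their counts. Of the 50 calls against Col-0 among the 10 genes and all lists, markers included, 30 were lost without the NRO library of Col-0, 50 without the assay term, 50 under limma with each gene's own spread, 16 with library totals and 11 with DESeq2. Calls kept whichever single library was left out were those of ABI1 in both mutants and of COR78, MYB15 and CRPK1 in nrpe1-11. With library totals MYB15 lost its call in nrpd1-3 and CRPK1 in both, while 8 early factors rose and 1 fell in nrpd1-3, 11 rose and 1 fell in nrpe1-11, and 6 and 8 abscisic acid genes rose with 0 falling, under a scaling by which 2348 and 4356 of 14530 genes rose.

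**Figure D5:**
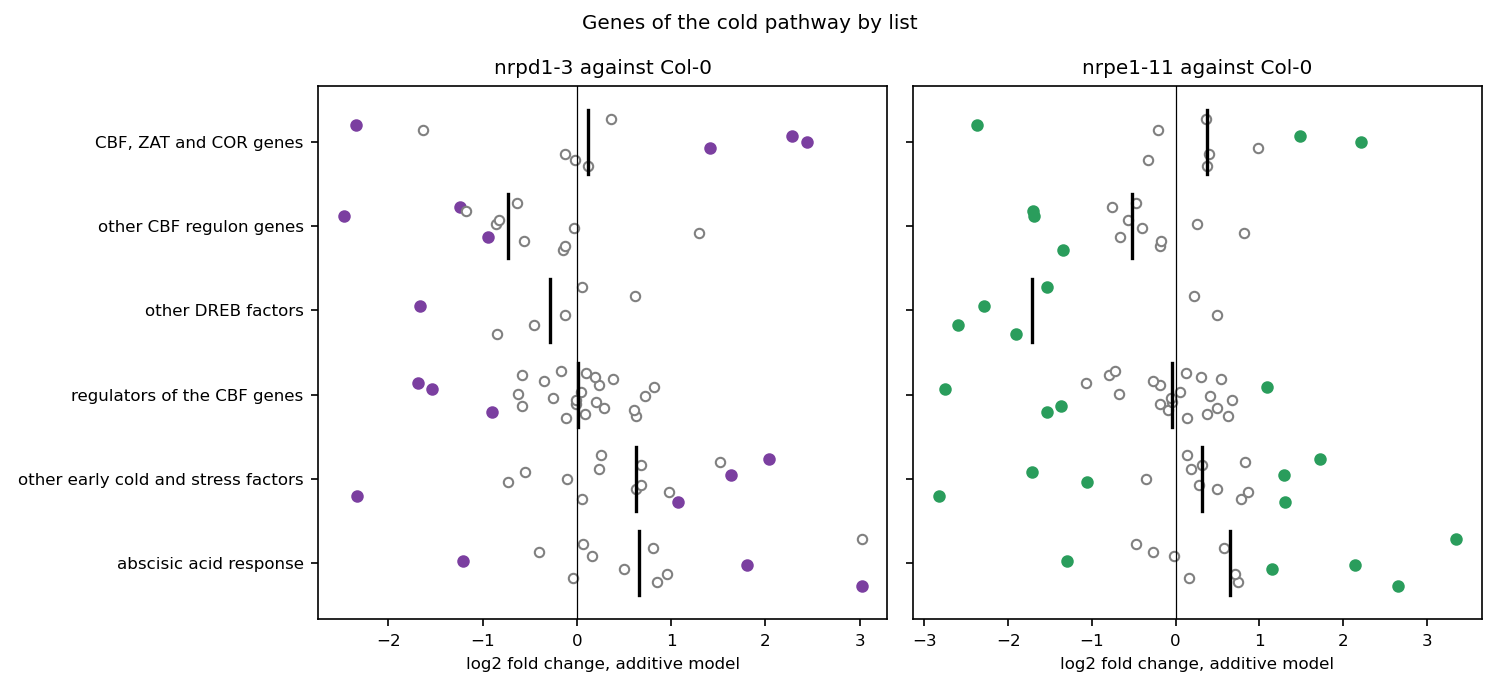
Fitted log2 fold change against Col-0 in the additive model for the 10 loci and 5 lists of the cold pathway, nrpd1-3 left and nrpe1-11 right; each point is a gene, filled where called, and the black bar is the list's median. The other DREB factors and other CBF regulon genes lie mostly below 0, while CBF1 and CBF3 lie above 1 in both panels.

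Markers of other cells moved in places beside these values. Epidermis and guard cell markers summed to 77.9 CPM in NRO of nrpd1-3 and 107 CPM in nrpe1-11, against 53.2 CPM in Col-0, and 0 of 5 tested were called in nrpd1-3 and 3 of 5 rose in nrpe1-11, against 6.94% of all genes higher there. The 3 were FDH, ATML1 and KAT1, and all lost their calls without the NRO library of Col-0. KAT1 reached 20 counts only in the NRO libraries of both mutants, where it is high, so any call of KAT1 gives no support beyond its counts. CER1 and FAMA went the other way, uncalled, at -1.29 and -1.12 in nrpe1-11 and -1.07 and -0.72 in nrpd1-3. By the size rule in NRO of nrpe1-11, 3 of the 5 were higher and 2 lower, against 12.1% and 11.1% of all genes. Root markers summed to 47.6 and 29.4 CPM in NRO, against 23.9 CPM in Col-0, and to 67.1 and 116 CPM in RNA, against 20.3 CPM, most of it from PYK10, with RHD6, WOX5 and IRT1 at 0 in all 6 libraries. Vascular markers lay between 26.4 and 29.7 CPM in NRO and dividing cell markers between 6.96 and 11.4 CPM. Of the 5 mesophyll genes, RBCS1A fell in nrpd1-3 (-1.25 ± 0.374, edgeR adjusted p = 0.0146), against 5.34% of all genes lower. LHCB2.1 rose in nrpe1-11 (0.94 ± 0.349, edgeR adjusted p = 0.0411), against 6.94% higher. Both calls were lost when the NRO library of either mutant was left out. The part of cell makeup in the CBF and COR78 differences was not tested.

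The genes whose 4 log2 ratios to Col-0 were most like a member's, by root mean square difference among about 1220 genes with at least 50 counts in a library of each assay, were these. COR78 was closest to PLA2A, a lipid acyl hydrolase (0.14), and TAT3, a tyrosine aminotransferase induced by jasmonate (0.15). CBF1 was closest to the transporter ABCC3 (0.27) and CBF2 to the purine permease PUP14 (0.16). ZAT10 was closest to ENODL2 (0.07) and to the touch gene TCH4 (0.08), ZAT12 to Tic62 (0.10), and COR47 to YSL3 (0.05). All ratios share the Col-0 libraries, so the likeness is a description only.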

How the data were processed

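Whole-number read counts per gene were made by the authors with HTSeq after Trimmomatic 0.33 and TopHat2 2.1.0 on TAIR10, per the submitters' processing notes; strand and counting settings are not given in the sources used here. For the RNA samples the labels repeat the NRO capture step, so whether that nuclear RNA was also captured is unclear. Each deposited table held 32678 genes and 5 summary lines, which were left out; among them, reads aligned more than once made up 47.8% to 92.7% of the alignments. Names, gene order and spans came from RefSeq (TAIR10.1), matching 31912 identifiers.

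The 10 loci and all gene lists were chosen with earlier results of these data known. Libraries were scaled by trimmed means (TMM) in edgeR 4.0.16 (R 4.3.3) and log2 ratios used a prior count of 2. CPM intervals are exact Poisson. The size rule was applied to genes reaching 20 counts in 1 library of the assay. The additive model used genes reaching 20 counts in any 2 libraries, edgeR's quasi-likelihood test, and calls at a Benjamini-Hochberg adjusted p under 0.05; its prior degrees of freedom were infinite, the common biological coefficient of variation was 0.183, and each SE was computed from the fold change and the test statistic. DESeq2 1.42.0 and limma 3.58.1 were alternatives. Intervals and floors cover counting error only, because amplified reads carry no molecular identifiers and may not be separate molecules. Named genes are the 10 loci, called and most abundant list members, most similar genes and gene neighbours. Scripts were tested on simulated data. The 3 chromatin samples were not analysed here.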

Additional observations from a re-analysis of the deposited data

How the results depend on the processing

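No paired analysis was possible because the labels give no replicate numbers and each group has 1 library; the additive model instead blocks NRO and RNA by assay. The number of members past the size rule was 7 with library totals in place of 4 in NRO of nrpe1-11 against Col-0, and 2 in place of 1 in RNA of nrpe1-11 against Col-0, with a 1.5-fold minimum or with thinned counts. In the additive model, dropping the assay term or using limma with each gene's own spread called 0 members in place of 4 in nrpd1-3 and 0 in place of 3 in nrpe1-11; library totals called 7 in nrpe1-11. For NRO against RNA, the fit without the genotype term called 5 and limma 0 in place of 8. Leaving out 1 library at a time gave 1 to 5 members in nrpd1-3, 1 to 4 in nrpe1-11, 0 to 2 between the mutants and 5 to 7 in NRO against RNA. DESeq2 gave CBF3 no adjusted p, and called 3 members in nrpd1-3 and 2 in nrpe1-11.

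Over all genes, DESeq2 called 343 in place of 1341 in nrpd1-3, 1041 in place of 2681 in nrpe1-11, 37 in place of 310 between the mutants and 2105 in place of 3866 in NRO against RNA. With a minimum of 50 counts 195 were called between the mutants. Leaving out 1 library gave 66 to 2232 in nrpd1-3, 413 to 3276 in nrpe1-11, 8 to 1243 between the mutants and 1743 to 3983 in NRO against RNA. Without the other term 0, 0, 0 and 1056 were called, and with limma 0, 1, 0 and 0. The 11 calls lost with DESeq2 were of KIN2, COR413IM1, CRPK1 and RAV1 in nrpd1-3 and of CBF4, DDF2, ICE1, ZAT8, ABF4, FDH and ATML1 in nrpe1-11. The cause was not tested.

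Directions that turned were of uncalled members near 0, except COR413IM1 in nrpd1-3 and DDF2. In nrpd1-3 ZAT10 was at -0.02 in the main model, at 0.64 with library totals, 0.00 with DESeq2 size factors, 0.01 without a filter, 0.32 without the assay term and -0.50 to 0.43 with a library left out. COR15A was at 0.43 with totals and -0.19 to 0.24 with a library left out, COR47 at -0.07 to 0.31 and COR413IM1 at -1.25 to 0.16. In nrpe1-11 ZAT10 was at 0.43 with totals, 0.02 without the assay term and -0.82 to 0.15 with a library left out, KIN1 at 0.58 and -0.55 to 0.36, and DDF2 at -2.66 to 0.73. Between the mutants CBF2 was at -0.67 to 0.02, CBF3 at 0.01 with totals, ZAT12 at -0.01 without a filter, -0.07 without the assay term and -0.17 to 0.40, COR78 at 0.17 with totals, 0.00 with DESeq2 size factors and -0.15 to 0.42, and DDF2 at -2.19 to 4.08. RNA depth limits CBF3, COR15A, KIN1 and GOLS3, which had 4 or fewer RNA counts in each library.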
